A study of Mus musculus with 6 samples.

Results

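The distal calcium and magnesium reabsorption genes are 10 genes whose proteins carry the last, regulated step of renal Ca2+ and Mg2+ recovery. They were Trpv5, Trpv6, Trpm6, Trpm7, Calb1, S100g, Atp2b1, Atp2b4, Casr and Cnnm2, chosen by symbol, and all 10 had 1 probe set with that single symbol among the 22180 genes tested. Expression was measured in kidney samples of 4-week-old mice on 1 Affymetrix array each, 3 labelled Cre-positive and 3 labelled Cre-negative. The labels name a conditional allele of Mpp5, which encodes the polarity protein Pals1, and a Six2-Cre transgene, which drives recombination in cap mesenchyme, the source of podocytes and of tubules up to the connecting segment, while the collecting duct has another origin. Both groups shared the mixed background and had no treatment. How many conditional alleles each sample carried, and whether each came from its own mouse, is not given by the labels. The p-values therefore rest on the scatter of these 6 samples alone, part of which may be technical.

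In the distal convoluted and connecting tubule, Ca2+ enters the cell through the apical channels TRPV5 and TRPV6, crosses the cell bound to calbindins, and leaves through the basolateral pumps and exchangers PMCA and NCX1. Mg2+ enters through TRPM6, alone or with its relative TRPM7, and CNNM2 is needed for Mg2+ balance at the basolateral side. The calcium-sensing receptor, most abundant in the thick ascending limb, adjusts this transport to plasma Ca2+, and vitamin D and parathyroid hormone raise the Ca2+ channels, calbindins and pumps in the distal nephron.

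The 6 arrays were alike in level, with medians of 5.55 to 5.64 on the log2 scale over all probe sets, but not in origin. The group labelled Cre-negative held RNA of both sexes: Xist stood at 10.76 and 10.70 in its replicates 1 and 2 and at 4.16 in replicate 3, against 4.00 to 4.29 in the Cre-positive arrays, and Y-linked Uty showed the reverse. Results are therefore also given with sex, read from these transcripts, as a second factor. Because sex varied among Cre-negative arrays only, that fit rests on 1 Cre-negative array with Y-linked transcripts, replicate 3. Adrenal transcripts were present in Cre-negative replicate 2, where the 7 marker genes averaged 9.11 against 4.25 to 4.36 in the other 5 arrays, and skeletal muscle transcripts in Cre-positive replicate 2, with an average of 7.004 against 4.63 to 4.90. Mpp5 itself was at 8.10 ± 0.09 in Cre-positive and 8.71 ± 0.06 in Cre-negative arrays (SD, n = 3 each), lower by 34.6% in Cre-positive arrays.

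The 2 apical Ca2+ channels rose in Cre-positive kidneys, while the Mg2+ channel Trpm6, the receptor Casr, the Mg2+ protein Cnnm2 and the calbindin Calb1 fell. The other 4 genes, Trpm7, S100g, Atp2b1 and Atp2b4, did not pass the test. Differences are Cre-positive minus Cre-negative on the log2 scale, ± SE from a limma fit over all 22180 genes, with p-values adjusted over all of them by Benjamini-Hochberg and a threshold of 0.05. In that fit 21.8% of all genes were called, 10.7% higher and 11.1% lower. Averaged over all 6 arrays, all 10 members lay above 6.34, the median of all genes' mean levels. Trpv6 did so only through its Cre-positive arrays, with means of 7.32 there and 6.09 in Cre-negative arrays. When genes below 6.34 were left out, 4822 of 11090 genes were called, with 2 members higher and 5 lower. Trpv6 is 1 of these 2, and its call in that fit adds no support. The 6 of 10 is therefore to be read against that larger share as well as 21.8%. In the fit of all genes the higher calls were 49.0% of all calls, and 38.2% when arrays were centred on their medians. That scaling left the members' counts at 2 higher and 4 lower. The members' median difference was -0.21, beside -0.01 over all genes. With sex as a second factor the calls of Trpv5, Trpv6 and Casr held, where 9.15% of all genes were called.

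**Figure D1:**
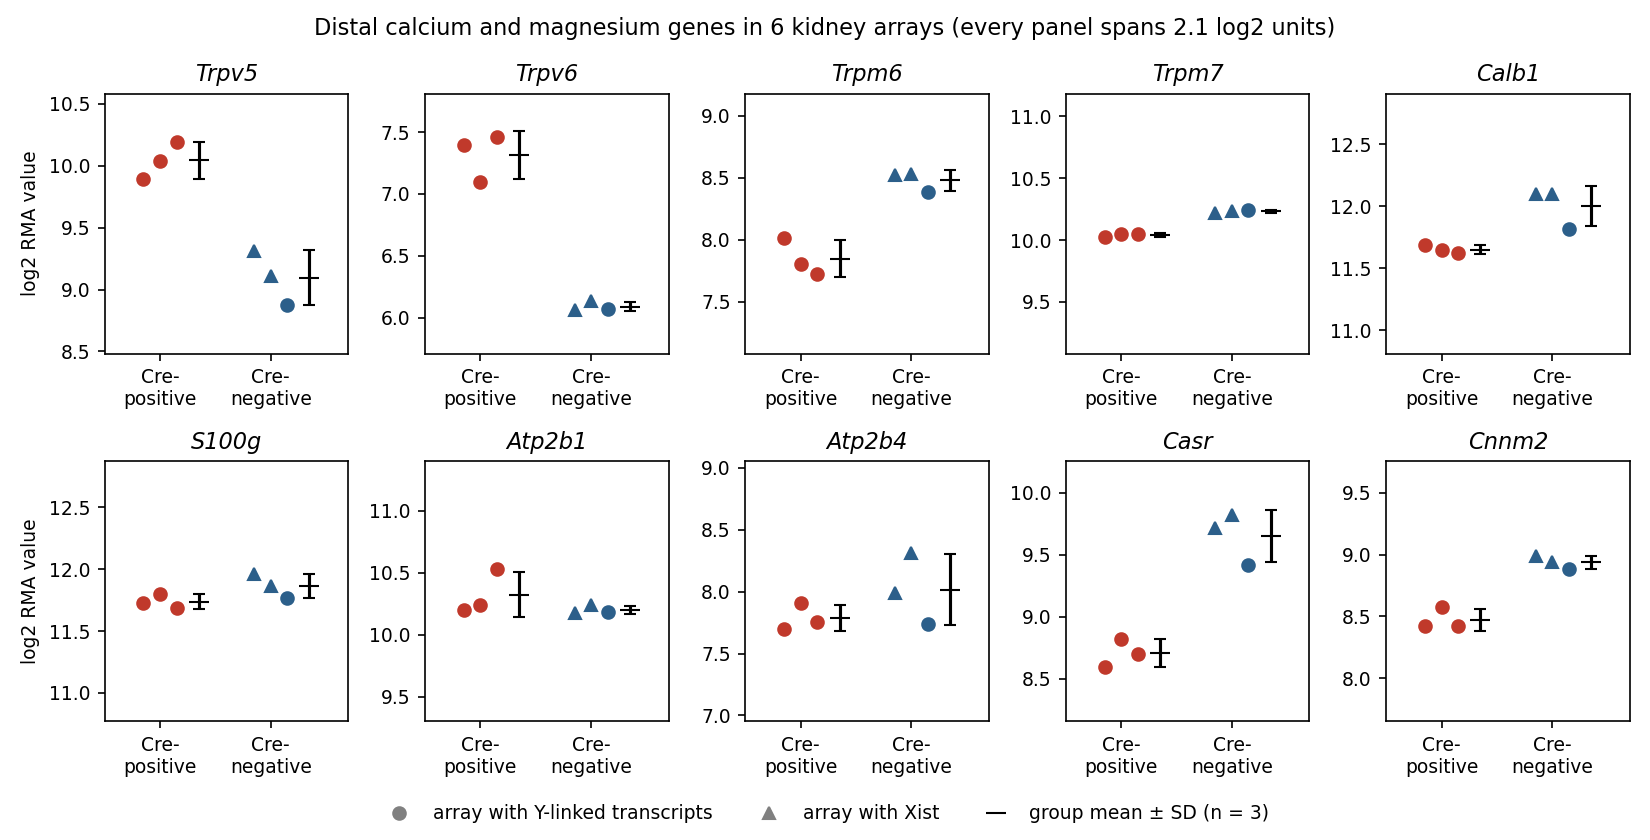
log2 RMA value of each of the 10 genes in every array, Cre-positive on the left and Cre-negative on the right. Circles are arrays with Y-linked transcripts, triangles arrays with Xist, and bars the group mean ± SD (n = 3). Trpv5 and Trpv6 lie higher in all Cre-positive arrays, and Trpm6, Trpm7, Calb1, Casr and Cnnm2 lower.

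The apical Ca2+ entry channels were the members that rose. Trpv6, a channel best known from the intestine and also made in the distal nephron, was at 7.39, 7.10 and 7.46 in Cre-positive arrays and at 6.07, 6.13 and 6.07 in Cre-negative arrays. The groups did not overlap, and the Cre-negative values lay within 0.07 of each other. Its difference was 1.23 ± 0.11, or 2.34-fold (95% interval 1.96 to 2.79), with limma adjusted p = 0.000339. Its level in Cre-negative arrays, 6.09, was below 6.34, the middle of all genes' means, where RMA compresses differences. The rise of Trpv6 was larger than the difference of 98.6% of all genes. Trpv5, the gatekeeper of Ca2+ entry in the distal tubule, was at 9.89, 10.04 and 10.19 in Cre-positive arrays and at 9.31, 9.11 and 8.87 in Cre-negative arrays. All Cre-positive values again lay above all Cre-negative values, and the lowest value was that of the Cre-negative array with Y-linked transcripts. The difference was 0.95 ± 0.13, or 1.93-fold (95% interval 1.56 to 2.38), with limma adjusted p = 0.00215. With sex as a second factor it was 1.17 ± 0.16 for Trpv5 and 1.24 ± 0.17 for Trpv6, with limma adjusted p = 0.00839 and 0.00763. TRPV5 and TRPV6 are close relatives, and how far probes of one respond to the other's transcript was not tested.

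Trpv5 and Trpv6 lie next to each other in the mouse genome, with 0 protein-coding genes between them in the RefSeq table of GRCm38.p6. The genes around them were looked at after the channels' values were seen. Of the 7 nearest measured protein-coding neighbours, 3 on the Trpv6 side and 4 on the Trpv5 side, 1 was called, where 21.8% of all genes were. The count is thus no result about the locus. That gene was Ephb6, an ephrin receptor adjacent to Trpv6, at 6.54, 6.61 and 6.53 in Cre-positive arrays and at 6.16, 6.25 and 6.03 in Cre-negative arrays (0.41 ± 0.09, limma adjusted p = 0.0141). Its groups did not overlap, as held for 38.5% of all genes. Llcfc1 and Kel, on the other flank beside Trpv5, did not pass (0.12 ± 0.09 and 0.17 ± 0.12, limma adjusted p = 0.429 and 0.394), though the groups of Llcfc1 did not overlap.

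The promoters of this neighbouring pair, the members that rose together, are shown with that of S100g, the small calbindin and a classic vitamin D target, which did not pass the test. Each runs from 250 bases before to 50 bases after the RefSeq start (GRCm38.p6), 5′ to 3′ on the gene's strand, which is the minus strand for all of them. The windows are chr6:41680674-41680973 for Trpv5, chr6:41636356-41636655 for Trpv6 and chrX:162964550-162964849 for S100g. Capitals mark 2 short motifs, searched on both strands and found without overlap. One, TATAAA, is the core of promoters with a fixed start. The other, AGGTCA, is a half-site of nuclear receptors such as the vitamin D receptor, and reads TGACCT where it lies on the other strand. Only these exact bases were searched, and variants of the half-site were not.
Trpv5: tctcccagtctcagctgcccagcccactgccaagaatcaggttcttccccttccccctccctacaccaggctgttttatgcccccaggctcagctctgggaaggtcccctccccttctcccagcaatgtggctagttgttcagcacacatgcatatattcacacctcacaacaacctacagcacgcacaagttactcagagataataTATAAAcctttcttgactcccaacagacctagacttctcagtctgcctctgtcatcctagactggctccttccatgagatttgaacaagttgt
Trpv6: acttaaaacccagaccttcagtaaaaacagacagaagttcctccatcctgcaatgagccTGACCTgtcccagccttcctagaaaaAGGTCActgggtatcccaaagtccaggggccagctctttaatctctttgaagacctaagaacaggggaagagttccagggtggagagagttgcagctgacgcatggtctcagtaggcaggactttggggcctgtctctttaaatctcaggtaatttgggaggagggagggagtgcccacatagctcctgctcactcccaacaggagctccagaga
S100g: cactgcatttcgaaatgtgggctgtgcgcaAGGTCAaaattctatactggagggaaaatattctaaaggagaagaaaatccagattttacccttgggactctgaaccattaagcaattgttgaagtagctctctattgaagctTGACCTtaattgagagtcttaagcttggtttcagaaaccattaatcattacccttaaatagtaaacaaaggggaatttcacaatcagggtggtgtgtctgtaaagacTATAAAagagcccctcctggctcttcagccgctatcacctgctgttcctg
The Trpv5 window held TATAAA 43 bases before the start and no AGGTCA. The Trpv6 window held AGGTCA on each strand, 165 and 191 bases before the start, and no TATAAA. The S100g window held AGGTCA on each strand, 107 and 220 bases before the start, and TATAAA at the annotated start. Of all 32851 RefSeq promoter windows of this length, 16.3% held AGGTCA and 13.6% held TATAAA. Neither motif was in the windows of Trpm6, Trpm7, Atp2b1, Atp2b4, Casr and Cnnm2, and no window of Calb1 was read.

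The cytosolic calbindins fell or did not pass. Calb1 encodes calbindin-D28k, the Ca2+ buffer and carrier of distal convoluted and connecting tubule cells. It was at 11.69, 11.65 and 11.62 in Cre-positive arrays and at 12.10, 12.10 and 11.82 in Cre-negative arrays. The groups did not overlap, and the Cre-negative array nearest to the Cre-positive ones was replicate 3. The difference was -0.35 ± 0.10, a fall of 21.7%, with limma adjusted p = 0.0425 (0.0179 to 0.605 over the alternatives). This call is the least secure of the 6: it was lost without any 1 array other than Cre-negative replicate 3, with limma adjusted p up to 0.144. The call was also lost after a second quantile normalization (-0.20, limma adjusted p = 0.219) and over every row (limma adjusted p = 0.0813). Calb1 was at -0.17 ± 0.12 with sex as a second factor, with limma adjusted p = 0.482. S100g, which encodes calbindin-D9k and lies on the X chromosome, was at 11.73, 11.80 and 11.69 in Cre-positive arrays and at 11.96, 11.86 and 11.76 in Cre-negative arrays. The groups overlapped, with the Cre-negative array without Xist inside the Cre-positive range. The difference was -0.12 ± 0.09 (95% interval -0.33 to 0.08, limma adjusted p = 0.391), so a rise of the size seen for Trpv5 or Trpv6 lay outside the interval.

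The basolateral Ca2+ pumps did not pass the test. Atp2b1 encodes PMCA1, the pump made in most cells. It was at 10.20, 10.24 and 10.53 in Cre-positive arrays and at 10.17, 10.24 and 10.19 in Cre-negative arrays, so that Cre-positive replicate 3 alone stood apart. Its difference was 0.12 ± 0.11 (95% interval -0.12 to 0.37, limma adjusted p = 0.490), and 0.02 without Cre-positive replicate 3. Atp2b4 encodes PMCA4, the pump associated with the distal tubule. It was at 7.70, 7.91 and 7.76 in Cre-positive arrays and at 7.99, 8.31 and 7.74 in Cre-negative arrays, with the highest value in the array that carried adrenal transcripts. The groups overlapped, the difference was -0.23 ± 0.15 (95% interval -0.57 to 0.11, limma adjusted p = 0.337), and it was -0.08 without Cre-negative replicate 2 and 0.05 with sex as a second factor.

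The members that carry Mg2+ fell or did not pass. Trpm6, the apical Mg2+ channel of the distal convoluted tubule, whose loss causes hereditary hypomagnesaemia in humans, was at 8.01, 7.80 and 7.73 in Cre-positive arrays and at 8.53, 8.53 and 8.38 in Cre-negative arrays. The groups did not overlap. Trpm6 fell by 35.5% (-0.63 ± 0.10, limma adjusted p = 0.00409), and was at -0.54 ± 0.15 with sex as a second factor (limma adjusted p = 0.0746). Cnnm2, whose mutation also causes Mg2+ wasting in humans, was at 8.42, 8.57 and 8.42 in Cre-positive arrays and at 8.99, 8.94 and 8.88 in Cre-negative arrays. All 3 Cre-positive values were below all 3 Cre-negative values, and Cnnm2 fell by 27.5% (-0.46 ± 0.09, limma adjusted p = 0.00734). The fit with sex gave -0.41 ± 0.13 for Cnnm2 (limma adjusted p = 0.106). The calls of both genes were also lost without both replicate 2 arrays, with limma adjusted p = 0.0714 for Trpm6 and 0.0559 for Cnnm2. Trpm7, a broadly made channel with a kinase domain like that of TRPM6, was at 10.02, 10.05 and 10.05 in Cre-positive arrays and at 10.22, 10.23 and 10.24 in Cre-negative arrays. It had the tightest groups of the 10 genes, which did not overlap, yet its difference of -0.19 ± 0.08 did not pass (limma adjusted p = 0.114).

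Casr had the largest fall of the 10 genes. It encodes the calcium-sensing receptor, a G-protein-coupled receptor that lowers Ca2+ and Mg2+ reabsorption in the thick ascending limb when plasma Ca2+ is high. Casr was at 8.59, 8.82 and 8.70 in Cre-positive arrays and at 9.72, 9.82 and 9.41 in Cre-negative arrays. The groups lay well apart, and Casr fell by 48.1% (-0.94 ± 0.12, limma adjusted p = 0.00163). The fit with sex gave a difference of -0.71 ± 0.14 (limma adjusted p = 0.0259). The same difference was not called in the 4 arrays with Y-linked transcripts (limma adjusted p = 0.0635).

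In all, 7 of the 10 genes had groups that did not overlap, 2 higher and 5 lower, where 38.5% of all genes did, 18.6% higher and 19.9% lower. An exact permutation test over the 6 arrays, two-sided, returned p = 0.10 for each of these 7, the smallest that 3 against 3 allows.

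**Figure D2:**
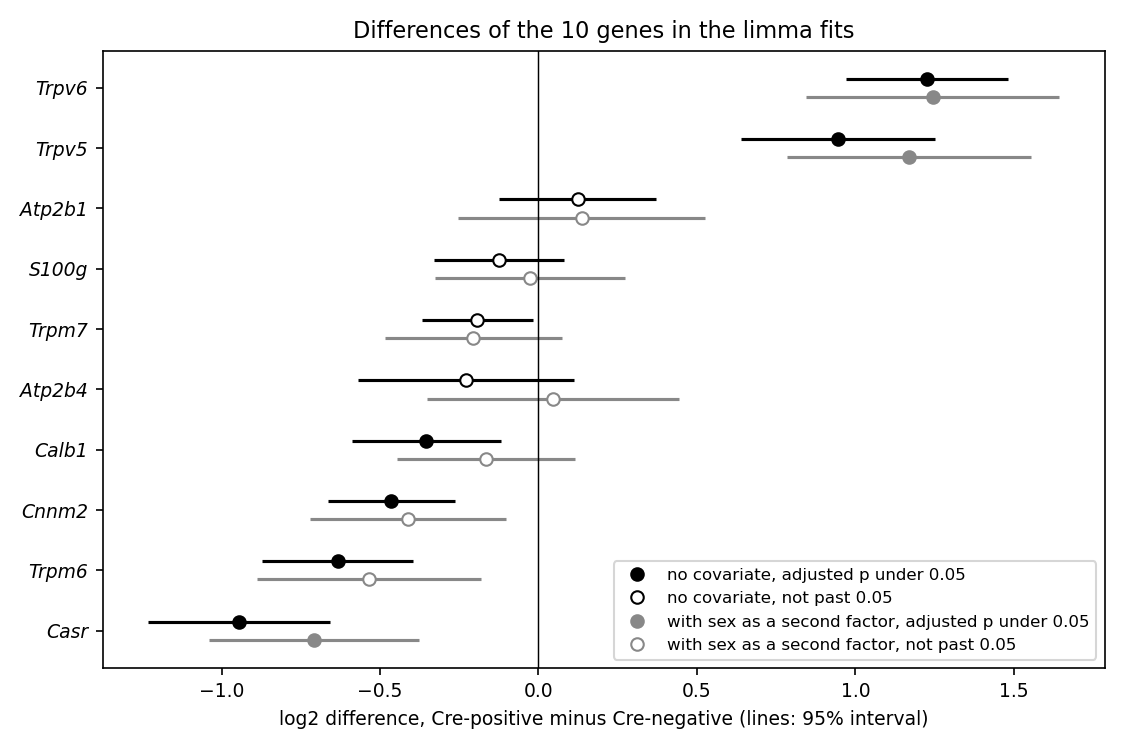
log2 difference of each gene, Cre-positive minus Cre-negative, with its 95% interval, from the limma fit without a covariate (black) and with sex as a second factor (grey). Filled points passed adjusted p 0.05. Trpv6 and Trpv5 lie to the right of 0 in both fits and Casr to the left, while Calb1, Cnnm2 and Trpm6 are filled in black only.

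Markers of the segment in which most of these genes act were lower in the same arrays. Of 10 distal convoluted and connecting tubule markers, 8 fell and 0 rose by limma, with 9 lower and 0 higher at an unadjusted p under 0.05, and their mean level was 9.14 to 9.43 in Cre-positive arrays and 9.93 to 10.23 in Cre-negative arrays. They included Slc12a3, the NaCl cotransporter (-0.78 ± 0.12), and Slc8a1, the Na+/Ca2+ exchanger NCX1 (-0.99 ± 0.16). Only 2 of these 8 calls held with sex as a second factor, and those of Slc12a3 and Slc8a1 did not. Of 8 thick ascending limb markers 4 fell and 1 rose, and 3 of these calls held with sex as a second factor. All 8 proximal tubule markers fell, also with sex as a second factor. Podocyte markers fell in 4 of 5 cases and those of intercalated cells in 3 of 7. With sex as a second factor 3 podocyte and 0 intercalated cell calls held. By the limma fit without a covariate 11.1% of all genes fell and 10.7% rose. Collecting duct principal cell markers moved the other way: 3 of 8, Aqp2 (0.91 ± 0.23), Scnn1b (0.54 ± 0.12) and Scnn1g (0.56 ± 0.12), rose and 0 fell by limma, against 4 and 1 without adjustment, with a median of 0.41. The mean level of these 8 was 9.40 to 9.76 in Cre-positive arrays and 9.22 to 9.48 in Cre-negative arrays. Of 9 macrophage markers 8 rose, with mean levels of 8.41 to 9.58 in Cre-positive and 7.26 to 7.43 in Cre-negative arrays, and 5 of 7 fibroblast markers rose. With sex as a second factor 4 macrophage and 1 fibroblast calls held. In whole kidney, fewer cells of a type and less RNA per cell cannot be told apart, and the part of cell makeup in the members' differences was not tested. Of 6 markers of intestinal epithelium, the other main site of Trpv6 and S100g, 0 rose and 1 fell by limma, with the same counts without adjustment, and their mean level was 5.14 to 5.21 in Cre-positive arrays and 5.28 to 5.35 in Cre-negative arrays. The one that fell was Vil1, at 9.08 to 9.10 in Cre-positive and 9.44 to 9.69 in Cre-negative arrays, which encodes villin of the brush border and is also made in proximal tubule. The digestive genes Fabp2 and Sis lay at 3.19 to 3.56 in Cre-positive and 3.24 to 3.73 in Cre-negative arrays, near 3.44, the level below which the dimmest 10% of genes lie, and Lct, Cdx1 and Cdx2 between 4.61 and 5.68 over all arrays.

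Each gene was therefore also expressed per array relative to the mean of the 10 distal markers, which itself was lower by 0.81 in Cre-positive arrays (difference of means, log2). On this scale 8 of the 10 genes stood higher in every Cre-positive array than in any Cre-negative array, 0 lower, and 2 overlapped. Of all genes 87.9% stood higher and 1.15% lower by the same rule, because the marker mean fell while the median of all genes hardly moved, so the count of 8 is no result about the members. The shift was 2.04 for Trpv6, 1.76 for Trpv5 and 0.94 for Atp2b1, with 0.69 for S100g and 0.46 for Calb1. The 2 genes that overlapped were Trpm6 (0.18) and Casr (-0.13), whose differences were closest to the mean of these distal markers. Casr is most abundant in another segment, the thick ascending limb. The 8 markers of that limb had a median difference of -0.46, from 0.37 for Cldn16 to -3.31 for Egf, beside -0.94 for Casr. The choice of reference sets the direction of most members: relative to the epithelial genes Cdh16, Cdh1 and Epcam, whose mean was higher by 0.18 in Cre-positive arrays, 2 genes stood higher (Trpv6 by 1.04 and Trpv5 by 0.76), 7 lower and 1, Atp2b1, overlapped, where 8.08% of all genes stood higher and 37.8% lower. Such ratios show unequal change within an array and not that any gene was constant.

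**Figure D3:**
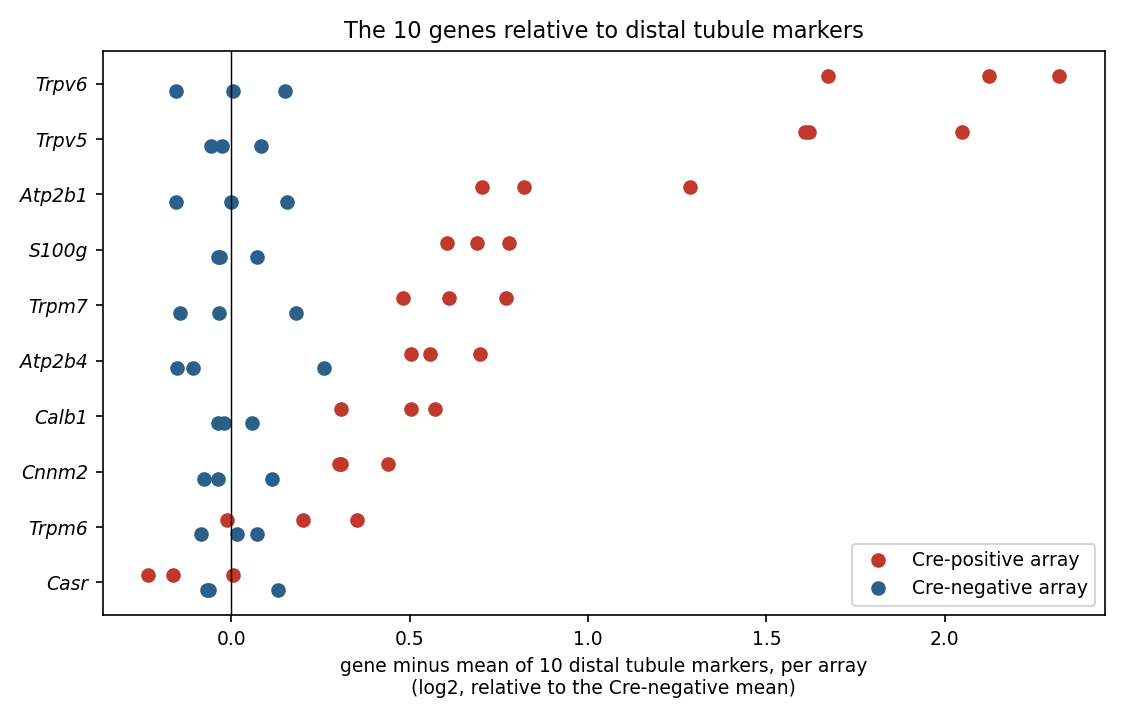
Each gene's log2 value minus the mean of 10 distal tubule markers in the same array, set to 0 at the Cre-negative mean. Points are single arrays. The Cre-positive points of Trpv6 and Trpv5 lie farthest to the right, and those of Trpm6 and Casr overlap the Cre-negative points.

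Other genes of the pathway were described from 6 lists, 90 genes without the members, of which 22 rose and 23 fell. That is 45 of 90 called, beside 21.8% of all genes, or 4822 of 11090 when genes below the median level were left out. The median difference of the 90 was 0.01. The lists and the members were picked with earlier results of these arrays known, so the counts describe them and no list was tested as a set. With sex as a second factor 24 of the 45 calls held. Genes of distal Ca2+ transport and partners of the channels moved both ways, with 4 of 19 higher, 6 lower and a median of -0.19. Anxa2 (0.89 ± 0.09) and S100a10 (0.59 ± 0.09), which encode the annexin complex that carries TRPV5 and TRPV6 to the membrane, rose, as did Bspry (1.04 ± 0.13), which encodes a TRPV5-binding protein. Anxa2 was at 9.47, 9.70 and 9.67 in Cre-positive arrays and at 8.67, 8.70 and 8.80 in Cre-negative arrays, without overlap. Slc8a1, the exchanger that works beside the pumps, was at 8.79, 9.04 and 8.54 in Cre-positive arrays and at 9.98, 9.84 and 9.50 in Cre-negative arrays, also without overlap but in the other direction. Pdzd3, encoding the scaffold NHERF4 (-1.14 ± 0.13), Fkbp4, an immunophilin that inhibits TRPV5 (-0.61 ± 0.09), and Nipsnap1, encoding a TRPV6-binding protein (-0.70 ± 0.11), fell. The calls of S100a10, Nipsnap1 and Slc8a1 were lost with sex as a second factor. Klk1, tissue kallikrein of the connecting tubule, was at -0.16 ± 0.10 and did not pass, and belongs to a family of similar genes that probes may not separate.

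**Figure D4:**
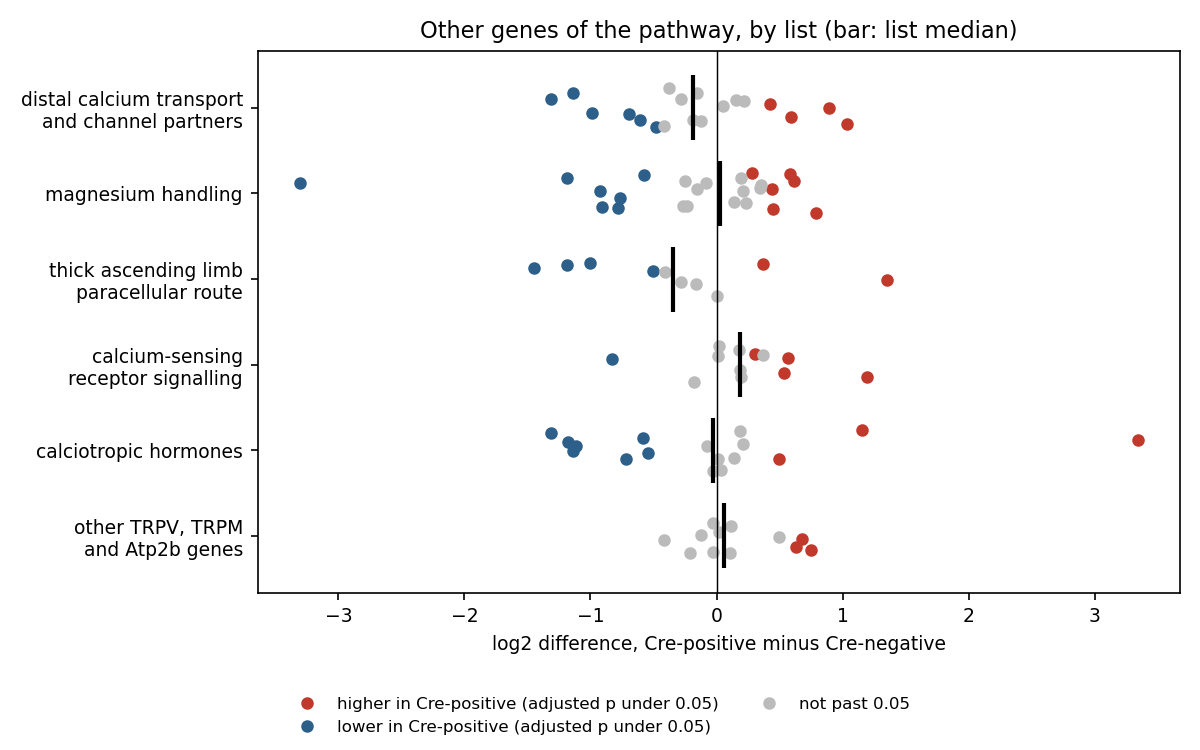
log2 difference, Cre-positive minus Cre-negative, of every measured gene of the 6 pathway lists. Red points were higher and blue points lower in Cre-positive arrays at limma adjusted p under 0.05, grey points did not pass, and the black bar is the list median. The lists hold calls on both sides of 0, except the other TRPV, TRPM and Atp2b genes, whose 3 calls were higher.

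Among 24 further genes of magnesium handling 6 rose and 7 fell, with a median of 0.03. Egf, whose product raises TRPM6 activity, was at 9.31, 8.66 and 8.10 in Cre-positive arrays and at 12.14, 12.01 and 11.84 in Cre-negative arrays. It fell by 3.31 ± 0.27 on the log2 scale, or 9.90-fold, more than any member. Also lower were Bsnd, the chloride channel subunit barttin (-1.19 ± 0.13), Cnnm4, a relative of Cnnm2 (-0.92 ± 0.13), Pcbd1, an enzyme of tetrahydrobiopterin recycling (-0.91 ± 0.10), and Magt1 (-0.77 ± 0.08). The rises included Nipal1 (0.79 ± 0.14), a Mg2+ transporter gene, Arl15 (0.58 ± 0.09), whose product acts with CNNM proteins, and Slc41a1, a basolateral Mg2+ transporter gene (0.45 ± 0.10), whose call was lost with sex as a second factor and without Cre-negative replicate 1 or 3. Slc41a3 (0.14 ± 0.18) and Fxyd2, the sodium pump gamma subunit that is mutated in human Mg2+ wasting (-0.23 ± 0.08), did not pass.

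Most Mg2+ crosses between cells of the thick ascending limb, and 4 of 10 genes of the paracellular route and its driving force fell and 2 rose, with a median of -0.34. Ptger3, a prostaglandin E2 receptor (-1.45 ± 0.17), Cldn10, a claudin gene read without separating its isoforms (-1.004 ± 0.09), Bsnd and Kcnj1, the ROMK channel (-0.50 ± 0.12), were lower. Cldn3 was higher (1.35 ± 0.15). Of the claudins that form the divalent cation pore, Cldn16 was at 9.20, 9.13 and 9.04 in Cre-positive arrays and at 8.95, 8.72 and 8.59 in Cre-negative arrays, and Cldn19 did not pass (-0.16 ± 0.12). The Cldn16 groups did not overlap, but its rise of 0.37 ± 0.11 (limma adjusted p = 0.0488) was lost without any 1 array other than Cre-negative replicate 1, with sex as a second factor and when arrays were centred on their medians. The call of Kcnj1 was lost with sex as a second factor and without Cre-negative replicate 1 or 2.

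Of 12 genes of calcium-sensing receptor signalling 4 rose and 1 fell, with a median of 0.19. Flna, encoding filamin A, a scaffold that binds the receptor and is abundant in many cells, rose (1.20 ± 0.11), and so did the G protein gene Gnai2 (0.57 ± 0.11). Plcb1, a phospholipase C gene downstream of Gq proteins, fell (-0.83 ± 0.09). Plcb2 (0.53 ± 0.14) and Plcb3 (0.31 ± 0.08) passed at limma adjusted p = 0.0276 and 0.0290, and each lost its call in 4 of the 6 fits that left out 1 array. The calls of Gnai2, Plcb2 and Plcb3 were lost with sex as a second factor.

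Transcripts of the hormone axis that governs these transporters moved both ways, with 3 of 17 genes higher, 7 lower and a median of -0.03. Hormone levels and receptor activity are not part of these data. Cyp27b1, the enzyme that makes active vitamin D, was at 11.64, 11.13 and 11.65 in Cre-positive arrays and at 8.04, 8.17 and 8.18 in Cre-negative arrays. The groups lay far apart, with a rise of 10.1-fold (3.34 ± 0.15, limma adjusted p = 3.38e-05). Cyp24a1, the vitamin D-inactivating enzyme and a standard target of the vitamin D receptor, was at 8.71, 8.08 and 8.11 in Cre-positive arrays and at 8.59, 7.62 and 8.12 in Cre-negative arrays. These groups overlapped (0.19 ± 0.26, limma adjusted p = 0.685). Vdr, the receptor gene, was lower (-0.54 ± 0.12, limma adjusted p = 0.0162), a call lost with sex as a second factor, with a second quantile normalization and without Cre-negative replicate 1, Cre-negative replicate 3 or Cre-positive replicate 2. Pth1r, the parathyroid hormone receptor, was at 9.12, 9.42 and 9.36 in Cre-positive arrays and at 10.50, 10.42 and 10.51 in Cre-negative arrays, and fell (-1.18 ± 0.10). Kl, encoding Klotho, a distal tubule protein that stabilises TRPV5 and is the FGF23 co-receptor, fell by 2.49-fold (-1.32 ± 0.13), with 10.92, 11.43 and 11.31 in Cre-positive arrays and 12.57, 12.53 and 12.49 in Cre-negative arrays. Lrp2 (-1.11 ± 0.10) and Cubn (-1.14 ± 0.12), the receptors that retrieve vitamin D with its binding protein in the proximal tubule, fell as well. Calcr, the calcitonin receptor (1.15 ± 0.19), and Fgfr1, the FGF23 receptor (0.50 ± 0.09), rose, and Esr1, the oestrogen receptor (-0.59 ± 0.11), fell. The calls of Fgfr1 and Esr1 were lost with sex as a second factor.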

How the data were processed

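Total RNA of 6 mouse kidney samples was hybridised to 1 Affymetrix whole-transcript array per sample, per the labels' protocols. The authors deposited log2 values after RMA in Partek, per the submitters' processing notes, without versions (RMA corrects background, quantile-normalizes and summarises probes). Such values understate differences of dim genes. The array's genome build is not given in the sources used here. Of 41345 rows, 23521 carried exactly 1 gene symbol, and the brightest row stood for a gene, which left 22180 genes. There were 0 columns of other samples, and no low-value filter was applied.

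Tests used limma 3.58.1 (lmFit, eBayes) under R 4.3.3, two-sided, without covariates, with Benjamini-Hochberg adjustment and a threshold of 0.05. Arrays carry no read depth; their number limits the precision. Tested on simulated data of 22180 genes, limma recovered 31% of changes of 0.5, 84% of 1 and 94% of 2 (log2). The changed genes numbered 100, 50 and 50, against 4844 genes called in the data. With so few changed genes the Benjamini-Hochberg cut is stricter, so these shares are not the sensitivity in these data. The members and lists were chosen with earlier results of these data known. Genes named are the members, up to 8 called genes per list and 15 fixed genes, of which 1 is not reported here; Ephb6, Llcfc1, Kel, Fabp2, Sis, Vil1, Lct, Cdx1, Cdx2, Aqp2, Scnn1b, Scnn1g, Cdh16, Cdh1 and Epcam were named besides. Promoters are RefSeq's (GRCm38.p6, 9 of 10 members matched). Alternatives, given in the closing section, covered normalization, centring, low genes, moderation, weights, rows, threshold, sex, the replicate block and left-out arrays.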

Additional observations from a re-analysis of the deposited data

How the results depend on the processing

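Under each of the 17 alternatives that refitted the data, 2 members were called higher, Trpv5 and Trpv6, with limma adjusted p up to 0.0411 for Trpv5 and 0.0231 for Trpv6. The count of members called lower, 4 in the fit reported, was 1 with sex as a second factor, 0 with limma in the 4 arrays with Y-linked transcripts alone (3 lower at an unadjusted p under 0.05, where the lone Cre-negative array borrows the spread of the Cre-positive ones) and 1 without both replicate 2 arrays. In the same 3 settings the pathway genes called higher numbered 11, 7 and 11 (14 at adjusted p under 0.01), and those called lower were 14 with sex and 12 in arrays with Y-linked transcripts. By list, calls with sex as a second factor and in arrays with Y-linked transcripts were 5 and 3 for distal calcium, 7 and 5 for magnesium (8 without both replicate 2 arrays), 6 and 6 for the hormones, and 2 and 2 for receptor signalling. Receptor signalling also had 3 calls over every row of the table, 2 without both replicate 2 arrays, 3 at adjusted p under 0.01 and 3 to 5 when 1 array was left out. The other TRPV, TRPM and pump genes had 1 call in arrays with Y-linked transcripts and 1 without both replicate 2 arrays. Over all genes, 4844 calls became 2030 with sex, 1101 in arrays with Y-linked transcripts, 1853 without both replicate 2 arrays, 2516 at adjusted p under 0.01 and 3141 to 4885 when 1 array was left out. Fewer arrays or an added term cost residual degrees of freedom, and the cause of each lost call was not tested.

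Some differences that did not pass changed sign. S100g was at 0.041 after a second quantile normalization, and Atp2b4 at 0.047 with sex as a second factor and in arrays with Y-linked transcripts. When 1 array was left out, Cyp24a1 ranged from -0.059 (without Cre-negative replicate 2) to 0.43 and was also below 0 without Cre-positive replicate 1, and Slc41a3 ranged from -0.045 (without Cre-positive replicate 3) to 0.27. Trpm7 passed when genes below the median level were left out (limma adjusted p = 0.0442). Relative to the epithelial genes, 2 members stood higher in place of 8. Arrays with the same replicate number did not pair: their deviations correlated at -0.042 to 0.03, and 2 of 6 arrays correlated best with their own number. With the replicate block, receptor signalling had 3 calls, the members 2 higher and 3 lower, Calb1 losing its call (limma adjusted p = 0.0643). Of the refits of single members, 148 kept direction and side of the threshold, 18 lost a call, 1 gained one and 3 changed sign. Scanner signals over background were not used here, which limits what can be said of dim genes.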

Other observations

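The relatives of the member channels and pumps were mostly dim and mostly did not pass. Most genes did not pass either: 21.8% of all genes were called by limma, 10.7% higher and 11.1% lower. The count that follows is thus no result about these relatives. Of 12 other TRPV, TRPM and plasma membrane Ca2+ pump genes, 3 rose and 0 fell by limma, against 4 and 1 when p was left unadjusted at 0.05, and the median was 0.06. The 3 were Trpm4, a Ca2+-activated cation channel (0.75 ± 0.12), Trpm2, a channel opened by ADP-ribose that is abundant in myeloid cells (0.67 ± 0.09), and Trpv2, also made in macrophages (0.63 ± 0.14). Trpm4 was at 7.25, 7.12 and 6.83 in Cre-positive arrays and at 6.34, 6.40 and 6.21 in Cre-negative arrays, and Trpm2 at 5.61, 5.44 and 5.54 in Cre-positive arrays and at 4.82, 4.79 and 4.95 in Cre-negative arrays. Neither gene's groups overlapped. The call of Trpv2 was lost with sex as a second factor, without Cre-negative replicate 2 or 3 and with the mean of all rows of the gene. Macrophage markers rose in the same arrays (8 of 9), and their part in these differences was not tested.

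The members' promoter windows differed in base composition. The GC share was 50.7% for Trpv5 and 51.3% for Trpv6, which rose. Among the members that fell it was 53.0% for Trpm6, 49.7% for Casr and 66.7% for Cnnm2. Among those that did not pass it was 41.0% for S100g, 47.7% for Atp2b4, 63.7% for Trpm7 and 79.3% for both Atp2b1 windows. The median of all windows was 52.7%.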
